A study of Homo sapiens with 90 samples.

Results

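The respiratory chain genes examined here are the nuclear genes for subunits of complexes I, II and III of the mitochondrial inner membrane. Members were chosen by symbol alone: the NDUFA, NDUFB, NDUFC, NDUFS and NDUFV genes, the SDH genes, the UQCR genes, CYC1 and NDUFAB1 that had a probe set naming no other gene. This gave 48 of the 19774 genes on the array. A total of 45 encode proteins, of which 6 are core subunits of complex I, 28 are accessory subunits of complex I, 3 belong to complex II and 8 to complex III. The other 3 are non-coding RNAs named after a neighbouring subunit gene (NDUFA6-DT, NDUFB2-AS1 and NDUFV2-AS1), and they are described apart. A further 2 symbols of the same families occurred only on probe sets that name several genes and were left out, and the mitochondrially encoded subunits were not analysed here.

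Complex I (NADH dehydrogenase) takes electrons from NADH, complex II (succinate dehydrogenase) takes them from succinate, and both pass them to ubiquinone. Complex III hands the electrons from ubiquinol to cytochrome c, and complexes I and III pump protons while they do so. Liver cells make much of their ATP through this chain, and several pesticides are known to inhibit complex I, II or III.

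The cells were HepG2, a human line derived from a liver tumour, and they received fenbuconazole (a triazole fungicide), imazalil (an imidazole fungicide), 2,4-D (a chlorophenoxy herbicide) or the vehicle DMSO alone for 24 h. The lowest of the 9 doses was 0.001 µM and the highest 10 µM, with 3 arrays for each dose and compound, every well holding the same share of DMSO, and the same 3 DMSO arrays served as controls for all compounds. RNA was measured on Affymetrix HT HG-U133+ PM arrays. Values are log2 probe set intensities normalized separately for each compound's set of 30 columns, so every difference below is taken against the DMSO columns of the same set. All 13 hepatocyte markers examined (ALB, APOA1 and TTR among them) were brighter in DMSO cells than at least 95.9% of genes. Of the 14 blood, endothelial and mesenchymal markers, 12 were dimmer than the median gene, and the exceptions were COL1A1, brighter than 52.2% of genes, and ACTA2, brighter than 84.4%.

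No member passed the threshold (adjusted p under 0.05, limma with Benjamini-Hochberg adjustment over all genes) at 10 µM of any compound. At 10 µM of fenbuconazole 0 of 48 members were called, where 3 of 19774 genes (0.0152%) were. At 10 µM of imazalil 0 of 48 were called, where 21 genes (0.106%) were, and at 10 µM of 2,4-D 0 of 48 against 0 genes (0%). With so few genes called in all, a count of 0 among 48 members does not set them apart from other genes. At an unadjusted p under 0.05 the member counts were 0 for fenbuconazole, 1 for imazalil and 1 for 2,4-D, where 4.74%, 5.97% and 3.96% of all genes passed. In bulk RNA, fewer cells that express a gene and less of its RNA per cell cannot be told apart.

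The differences themselves were small, and the intervals around them give the sizes that these arrays leave room for. Over the 48 members the median log2 difference at 10 µM was -0.019 for fenbuconazole, 0.019 for imazalil and 0.0079 for 2,4-D. The medians over all genes were -0.00089, -0.0043 and 0.00077. The difference was above 0 in 18, 28 and 26 members respectively. When all columns were quantile normalized together, the median over members had the opposite sign for imazalil and 2,4-D. Among the 45 subunit genes the 95% interval lay wholly within a 1.2-fold change in either direction for 41 genes with fenbuconazole, 33 with imazalil and 42 with 2,4-D. It lay within a 1.5-fold change for 44, 44 and 45 of them. Of all genes, 27.3%, 28.5% and 38.9% had intervals within 1.2-fold, a share that also counts the many dimmer and noisier probe sets.

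**Figure D1:**
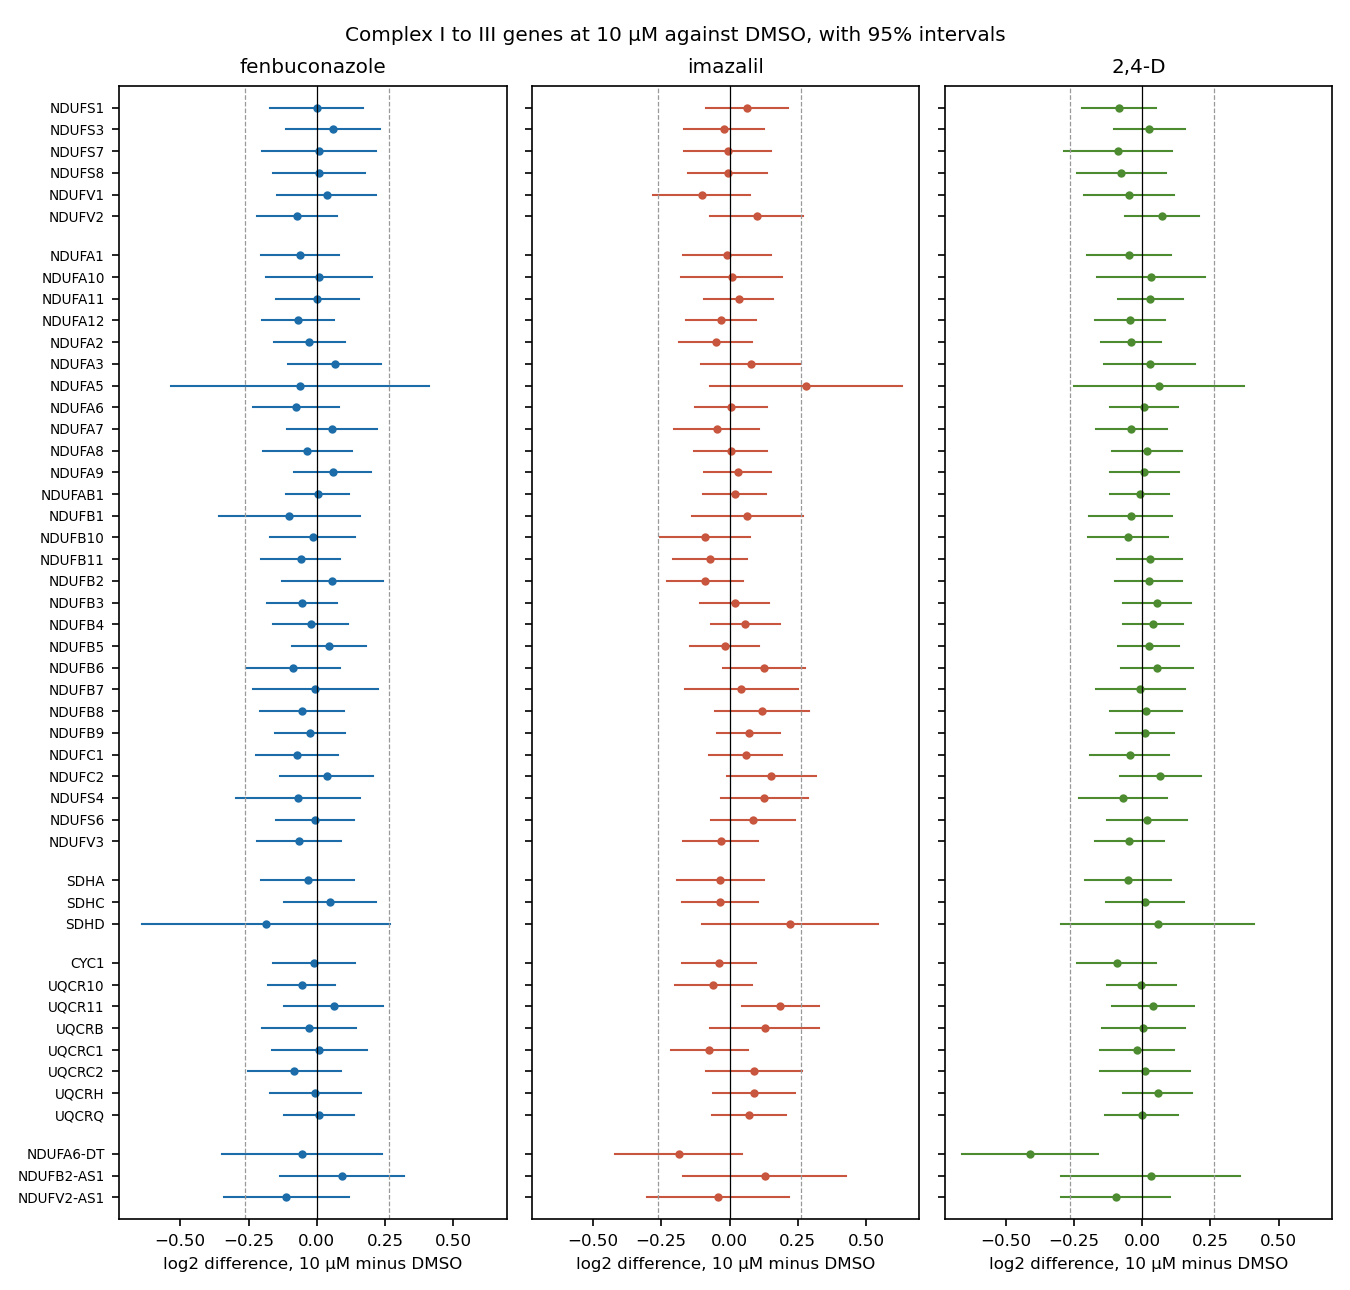
Log2 difference between 10 µM and DMSO (x axis, mean of 3 arrays minus mean of 3) for the 48 members (y axis), 1 panel per compound. Points are fitted differences and lines are 95% intervals from limma, with dashed lines at a 1.2-fold change. Most subunit intervals lie between the dashed lines, and those of SDHD and NDUFA5 are the widest among the subunit genes in each panel.

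The core subunits of complex I bind its cofactors and carry its electrons. NDUFV1, which holds the NADH site, had log2 differences at 10 µM of 0.035 ± 0.089 (SE) for fenbuconazole, -0.10 ± 0.086 for imazalil and -0.049 ± 0.080 for 2,4-D. In the imazalil set NDUFV1 read 8.99, 9.24 and 9.12 in DMSO and 9.06, 9.05 and 8.95 at 10 µM, so the groups overlapped. NDUFS1, the large iron-sulfur subunit, differed by -0.0012 ± 0.083, 0.063 ± 0.073 and -0.084 ± 0.066 in the same order of compounds. NDUFS7, an iron-sulfur subunit close to the ubiquinone site, was among the 5 lowest members with 2,4-D at -0.087 ± 0.096. NDUFV2, an iron-sulfur subunit of the NADH-oxidising module, was the highest member with 2,4-D at 0.074 ± 0.066, and NDUFS3 was among the 5 highest with fenbuconazole at 0.060 ± 0.084. Every one of these intervals included 0, and the medians over the 6 core genes were 0.0085, -0.0068 and -0.062 for fenbuconazole, imazalil and 2,4-D.

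Accessory subunits surround the core, and many are needed for its assembly and stability. The 28 accessory genes had median log2 differences of -0.027 for fenbuconazole, 0.025 for imazalil and 0.013 for 2,4-D, with 9, 19 and 17 of them above 0. NDUFA5 had the highest difference of all members with imazalil. Its log2 values there were 8.76, 8.34 and 8.64 in DMSO and 8.67, 8.86 and 9.05 at 10 µM, a difference of 0.28 ± 0.17 (95% interval -0.070 to 0.63, adjusted p = 0.876 by limma). The groups overlapped, and with the interquartile range of each array in the model the difference was 0.16 ± 0.11. Without DMSO replicate 2 it was 0.16, without replicate 2 of every group 0.16, without 10 µM replicate 3 0.18 and without replicate 1 of every group 0.47. NDUFC2 was the next accessory gene with imazalil, at 0.15 ± 0.080 (adjusted p = 0.849 by limma). NDUFC2 read 11.07, 10.98 and 11.11 in DMSO and 11.16, 11.20 and 11.25 at 10 µM, so that all 3 treated values were higher.

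At the other end, NDUFB10 and NDUFB2 were among the lowest members with imazalil, at -0.091 ± 0.080 and -0.088 ± 0.068. With fenbuconazole NDUFB1 differed by -0.10 ± 0.13 and NDUFB6 by -0.088 ± 0.084, and the highest accessory genes were NDUFA3 at 0.065 ± 0.083 and NDUFA9 at 0.058 ± 0.069. NDUFB8, a subunit often blotted as a readout of assembled complex I, differed by -0.054 ± 0.075, 0.12 ± 0.084 and 0.014 ± 0.064 for fenbuconazole, imazalil and 2,4-D. With 2,4-D the highest accessory genes were NDUFC2 at 0.066 ± 0.072 and NDUFA5 at 0.060 ± 0.15. The 95% interval of each value in this group included 0.

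Complex II is the only complex of the chain that also works in the citric acid cycle. SDHA, its flavoprotein, differed at 10 µM by -0.034 ± 0.082 for fenbuconazole, -0.034 ± 0.077 for imazalil and -0.052 ± 0.076 for 2,4-D. SDHC, a membrane anchor, differed by 0.048 ± 0.082, -0.035 ± 0.068 and 0.0094 ± 0.069. SDHD, the other membrane anchor, gave the lowest difference of all members with fenbuconazole and the next highest after NDUFA5 with imazalil. In the fenbuconazole set SDHD read 7.97, 7.43 and 7.79 in DMSO and 7.94, 7.28 and 7.40 at 10 µM, a log2 difference of -0.19 ± 0.22 (95% interval -0.64 to 0.27). In the imazalil set SDHD read 7.98, 7.35 and 7.76 in DMSO and 7.85, 7.77 and 8.14 at 10 µM, a difference of 0.22 ± 0.16 (-0.10 to 0.54). For 2,4-D SDHD differed by 0.057 ± 0.17. The groups overlapped in every set, and DMSO array 2 read well below the other DMSO arrays. With the array's interquartile range in the model the fenbuconazole difference came to -0.0059 ± 0.10 and the imazalil difference to 0.12 ± 0.12. When replicates were left out in turn, the fenbuconazole difference ran from -0.39 (without 10 µM replicate 1) to -0.056 (without 10 µM replicate 2). The imazalil difference ran from 0.050 (without DMSO replicate 2) to 0.40 (without replicate 1 of every group).

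Promoter sequences were available for 39 of the 45 subunit genes from RefSeq (GRCh38.p14, windows of 300 bases around the start, of which 250 lie upstream). The core GCGCATGC of the motif of NRF1, a factor known to act on respiratory chain genes, occurred on either strand in 7 of the 39 genes (17.9%) and in 3.68% of 27305 genes. Those 7 were NDUFA5, NDUFA6, NDUFA8, NDUFB4, NDUFS6, NDUFS7 and SDHD. The core CCGGAAG of ETS factors such as GABPA occurred in 8 (20.5%) against 12.2%, and CCAAT in 11 (28.2%) against 39.7%. A window could hold more than 1 of the 3 motifs. The upstream bases of NDUFA5 and SDHD are shown with the NRF1 core in capitals. This pair was picked because its values varied together across arrays, as described further on. Both genes also moved with array spread, and a part of the NRF1 core in their values was not tested. The window of NDUFA5 is chr7:123557819-123558068 on the minus strand and that of SDHD is chr11:112086623-112086872 on the plus strand, both written 5′ to 3′ and ending at the base before the start. The core begins 158 bases before the start of NDUFA5 and 110 bases before that of SDHD. A match describes the letters and is not a bound site.
NDUFA5: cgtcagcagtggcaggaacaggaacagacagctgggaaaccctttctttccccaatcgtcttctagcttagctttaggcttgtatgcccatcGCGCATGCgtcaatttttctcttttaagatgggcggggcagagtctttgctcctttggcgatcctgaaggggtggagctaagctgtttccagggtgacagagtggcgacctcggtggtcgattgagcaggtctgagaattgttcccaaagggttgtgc
SDHD: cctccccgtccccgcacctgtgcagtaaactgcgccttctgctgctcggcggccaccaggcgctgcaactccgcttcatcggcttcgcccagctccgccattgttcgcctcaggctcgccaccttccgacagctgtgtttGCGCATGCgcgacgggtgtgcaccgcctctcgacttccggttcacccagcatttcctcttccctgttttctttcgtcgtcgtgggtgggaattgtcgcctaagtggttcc

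Complex III transfers electrons through cytochrome b, cytochrome c1 and an iron-sulfur protein. CYC1, which encodes cytochrome c1, differed at 10 µM by -0.0099 ± 0.073 for fenbuconazole, -0.038 ± 0.066 for imazalil and -0.093 ± 0.070 for 2,4-D, where it was the lowest subunit gene. UQCRC1, a core protein of complex III, differed by 0.0082 ± 0.085, -0.074 ± 0.069 and -0.020 ± 0.066. UQCRC2, the other core protein, differed by -0.083 ± 0.083, 0.090 ± 0.086 and 0.011 ± 0.080. UQCRH, the hinge protein, was among the highest with 2,4-D at 0.057 ± 0.061, and UQCRB, a ubiquinone-binding subunit, was among the highest with imazalil at 0.13 ± 0.097. None of these intervals excluded 0.

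UQCR11, a small subunit of complex III, was the subunit gene with the lowest p in any contrast of 10 µM with DMSO. In the imazalil set UQCR11 read 10.47, 10.29 and 10.39 in DMSO and 10.52, 10.61 and 10.57 at 10 µM. The 10 µM mean was 10.57 ± 0.050 (SD, n = 3) against 10.38 ± 0.092 (SD, n = 3) in DMSO, a difference of 0.19 ± 0.068 with a 95% interval of 0.047 to 0.33. All 3 treated arrays were above all 3 DMSO arrays, but the unadjusted p of 0.0109 became an adjusted p of 0.738 (limma), so the difference did not pass the threshold. At 3 µM the UQCR11 mean was 10.41 ± 0.031 and at 1 µM 10.39 ± 0.021 (SD, n = 3 each). A dimmer second probe set for UQCR11 differed by -0.081 ± 0.089 at 10 µM, the mean of both probe sets differed by 0.053, and without replicate 2 the difference was 0.12. With fenbuconazole UQCR11 differed by 0.062 ± 0.088 and with 2,4-D by 0.039 ± 0.072.

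Complete separation of the 3 treated from the 3 control arrays was counted as well. With fenbuconazole 2 of 48 members had groups that did not overlap, NDUFV2-AS1 and UQCR10, both lower, against 9.05% of all genes. With 2,4-D 1 member did, NDUFA6-DT, lower, against 6.75%. With imazalil 7 of 48 did, against 12.7% of all genes, both counted in either direction. The share of all genes that separated upward was not counted. All 7 members were higher at 10 µM. They were NDUFB9, UQCRQ, NDUFB6, NDUFS4, NDUFC2, UQCR11 and the non-coding NDUFB2-AS1, with log2 differences from 0.070 for NDUFB9 to 0.19 for UQCR11.

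**Figure D2:**
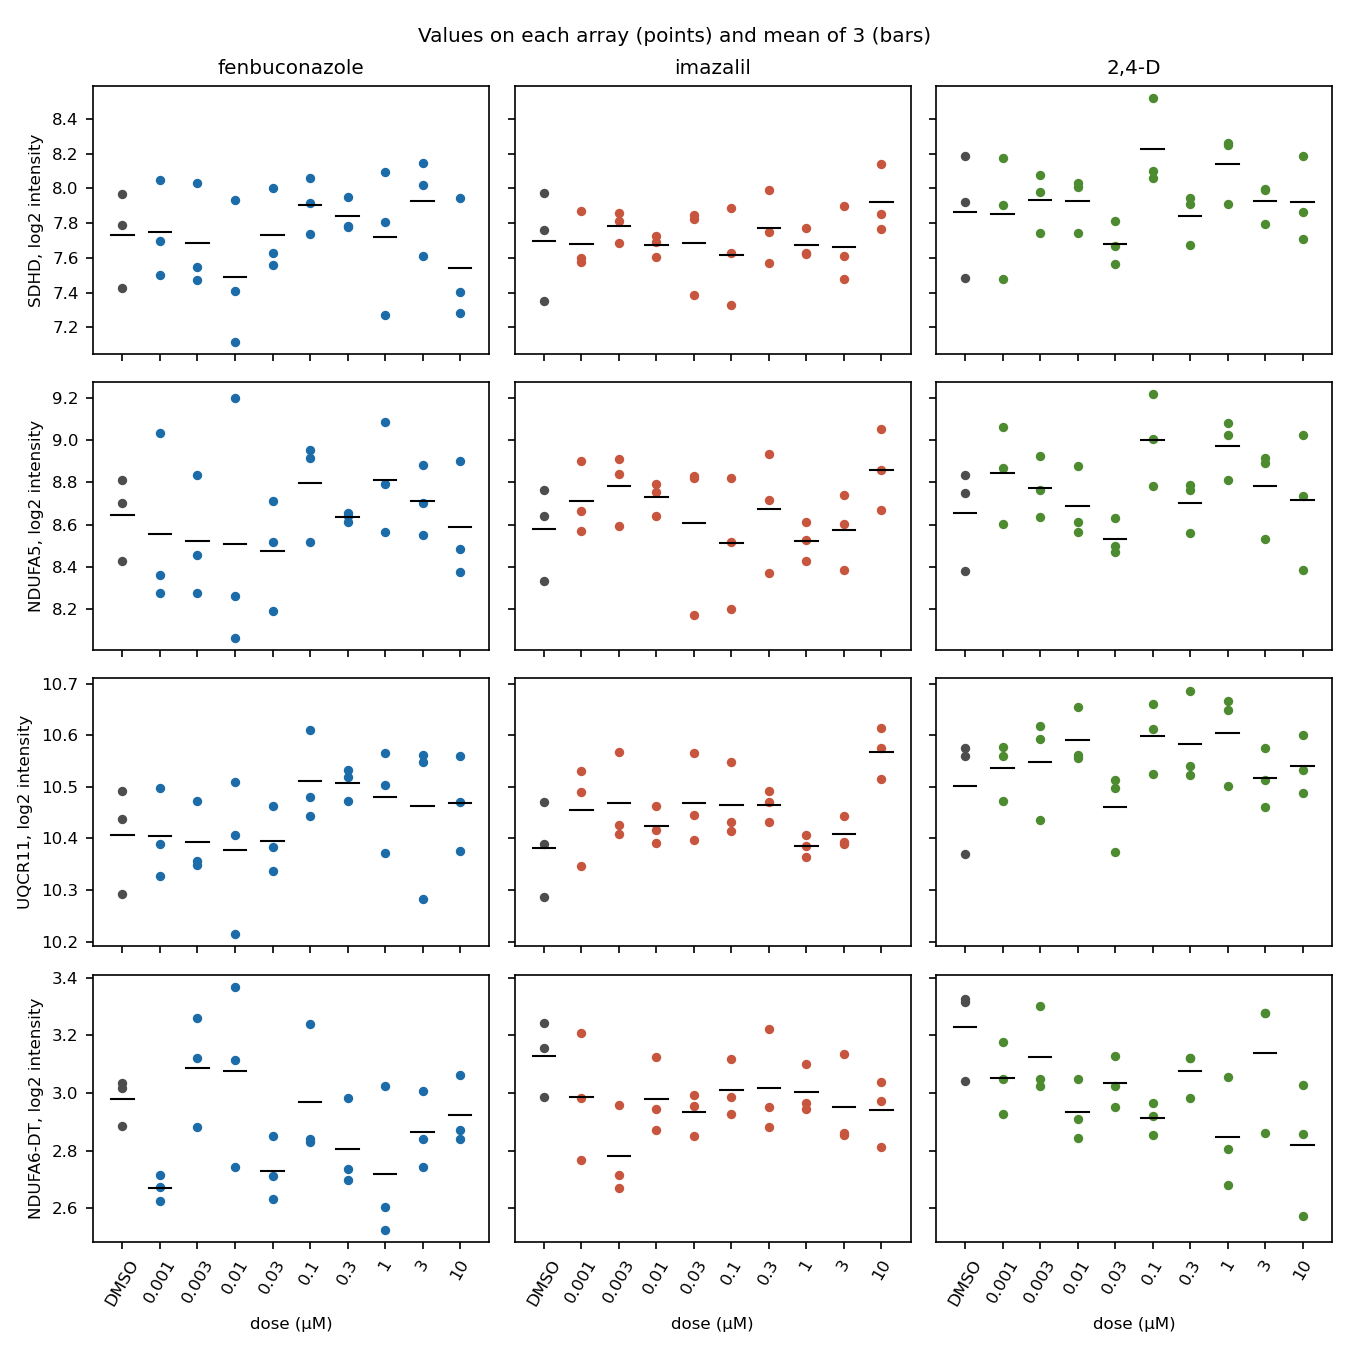
Log2 intensity on each array for SDHD, NDUFA5, UQCR11 and NDUFA6-DT in DMSO and at each dose (x axis, µM) of each compound, with points for arrays and bars for the mean of 3. SDHD and NDUFA5 scatter widely within a dose, and the 3 UQCR11 values at 10 µM imazalil lie above the 3 DMSO values.

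The non-coding RNAs were dim, with means over all columns of 2.4 to 3.1 against array medians of 2.95 to 3.15, and no detection call comes with these values. NDUFA6-DT, transcribed divergently from NDUFA6, had the lowest p of any member against DMSO at 10 µM. In the 2,4-D set NDUFA6-DT read 3.04, 3.33 and 3.32 in DMSO and 2.57, 3.03 and 2.86 at 10 µM, a difference of -0.41 ± 0.12 (95% interval -0.66 to -0.16, unadjusted p = 0.00233 and adjusted p = 1.00 by limma). All values at 10 µM lay below the controls, and the adjusted p was far from the threshold. The mean was also below DMSO at every lower dose of 2,4-D, from -0.090 at 3 µM to -0.38 at 1 µM. So it was at every lower dose of imazalil, from -0.11 at 0.3 µM to -0.35 at 0.003 µM, against the same DMSO arrays. At lower doses of fenbuconazole both signs occurred. At 10 µM NDUFA6-DT differed by -0.055 ± 0.14 with fenbuconazole and -0.19 ± 0.11 with imazalil, and NDUFA6 itself by 0.0074 ± 0.061 with 2,4-D. NDUFB2-AS1 was the highest member with fenbuconazole at 0.093 ± 0.11. NDUFV2-AS1 differed by -0.11 ± 0.11 with fenbuconazole and -0.096 ± 0.097 with 2,4-D.

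Below 10 µM no member passed the threshold at any of the 8 doses of any compound. Over all genes, 0 (0%) passed at a lower dose of fenbuconazole, 1 (0.00506%) at a lower dose of imazalil and 0 (0%) at a lower dose of 2,4-D. The median over subunit genes stayed between -0.026 and 0.028 at every dose. The lowest or highest subunit gene of a dose was often one of a few. SDHD differed by -0.24 at 0.01 µM of fenbuconazole and by 0.36 at 0.1 µM of 2,4-D. NDUFA5 differed by 0.32 at 1 µM of 2,4-D, NDUFS8 by -0.23 at 1 µM of fenbuconazole, and NDUFS7 by -0.21 at 0.01 µM of imazalil. The smallest adjusted p of a member at any lower dose was 0.828 (limma).

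**Figure D3:**
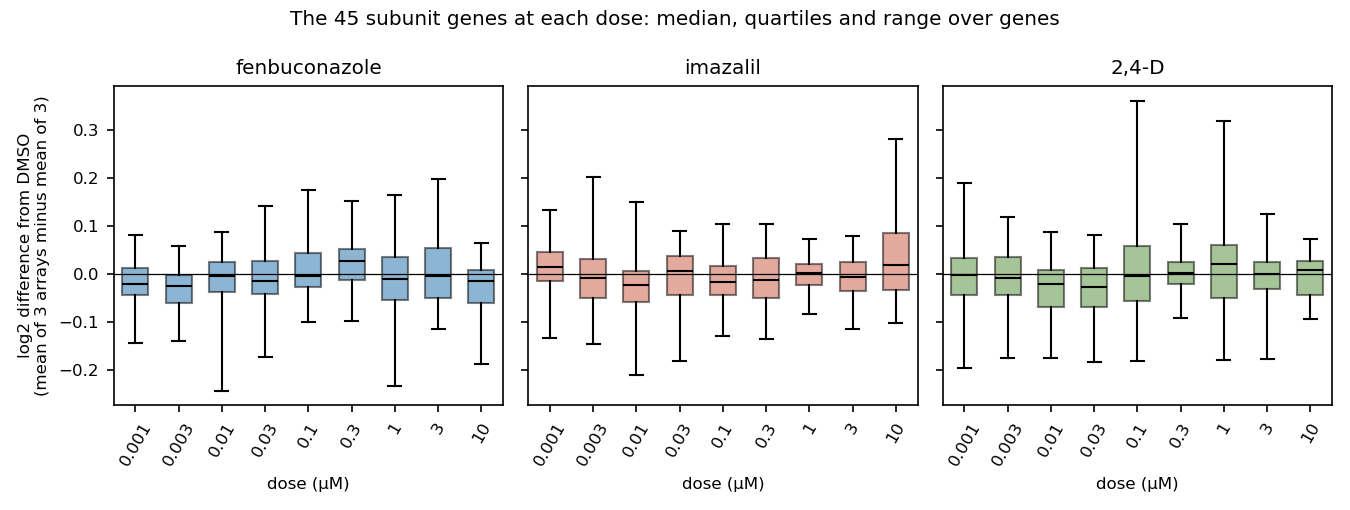
Log2 differences from DMSO (y axis, mean of 3 arrays minus mean of 3) of the subunit genes at each dose (x axis, µM), 1 panel per compound, as boxes with the median, the quartiles and whiskers over the full range. The medians stay between -0.026 and 0.028 at all doses, with no dose standing apart.

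The F test over the 9 doses called 0 of 48 members for each compound, against 2 genes (0.0101%) for fenbuconazole, 7 (0.0354%) for imazalil and 0 (0%) for 2,4-D. The slope over the 27 treated arrays, which leaves out the shared DMSO arrays, also called 0 members for each, against 3 (0.0152%), 27 (0.137%) and 0 (0%) genes. At an unadjusted p under 0.05 the F test counted 0, 0 and 1 members, the last being NDUFA6-DT, against 3.52%, 4.63% and 5.27% of all genes. Unadjusted, the slope counts were 0, 3 and 1 members against 6.01%, 7.36% and 4.56% of all genes. For imazalil these were NDUFB2-AS1 at 0.068 ± 0.027 log2 units per 10-fold dose, NDUFS7 at 0.031 ± 0.013 and NDUFS6, an accessory subunit that binds zinc, at 0.031 ± 0.013, and for 2,4-D the gene was NDUFV2 at 0.026 ± 0.011. The most negative slopes with imazalil were those of NDUFB11 at -0.020 ± 0.011, NDUFB1 at -0.018 ± 0.017 and SDHA at -0.014 ± 0.015, and NDUFV2-AS1 had 0.032 ± 0.023.

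With fenbuconazole the most positive slopes were those of NDUFA5 at 0.049 ± 0.040, NDUFS7 at 0.027 ± 0.017 and UQCR11 at 0.026 ± 0.015. The most negative were NDUFB2-AS1 at -0.024 ± 0.022, NDUFA10 at -0.018 ± 0.016 and NDUFB6 at -0.016 ± 0.014. With 2,4-D the other steep slopes were SDHD at 0.029 ± 0.032, UQCRC2 at 0.024 ± 0.014, NDUFA6-DT at -0.034 ± 0.024, NDUFC1 at -0.018 ± 0.013 and NDUFA7 at -0.016 ± 0.011. None of the slopes passed the threshold.

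The contrast of 10 µM with the mean of the 3 lowest doses gave the same count, 0 of 48 for each compound, against 12 (0.0607%), 45 (0.228%) and 0 (0%) of all genes. Unadjusted, 4 members were under 0.05 with imazalil: NDUFS7 at 0.15 ± 0.063, NDUFS1 at 0.13 ± 0.060, UQCR11 at 0.12 ± 0.055 and NDUFB11, an accessory membrane subunit, at -0.12 ± 0.054. The lowest adjusted p among them was 0.571 (limma). With 2,4-D 1 member was under 0.05 unadjusted, NDUFA6-DT at -0.22 ± 0.099, and with fenbuconazole 0 were. At the same unadjusted threshold 5.48%, 7.32% and 4.33% of all genes passed for fenbuconazole, imazalil and 2,4-D.

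Between compounds at 10 µM, 3 pairs were compared on values minus the DMSO mean of their set, and all pairs share the DMSO arrays. Fenbuconazole and imazalil are both azoles, with a triazole and an imidazole ring, and 2,4-D has no azole ring. Imazalil against fenbuconazole called 0 of 48 members and 8 genes (0.0405%). NDUFB6 had the lowest p, with a difference of 0.21 ± 0.075 (95% interval 0.063 to 0.36, adjusted p = 0.354 by limma), followed by NDUFV2 at 0.17 ± 0.074 and NDUFB8 at 0.17 ± 0.075. Imazalil against 2,4-D called 0 members and 50 genes (0.253%), with the lowest p for NDUFS4 at 0.20 ± 0.076, UQCR11 at 0.15 ± 0.064 and NDUFS1 at 0.15 ± 0.065.

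Fenbuconazole against 2,4-D called 0 members and 18 genes (0.091%), with the lowest p for NDUFA6-DT at 0.35 ± 0.14, NDUFV2 at -0.15 ± 0.063 and NDUFB6 at -0.14 ± 0.069. At an unadjusted p under 0.05 the 3 pairs counted 7, 3 and 3 members, where 9.89%, 9% and 6.87% of all genes passed. The lowest adjusted p of a member in the last 2 pairs was 0.419 and 0.595 (limma). The 95% interval of the difference lay within 1.5-fold for 46, 48 and 46 of the 48 members. The exceptions were NDUFA5 and SDHD between imazalil and fenbuconazole, with intervals of -0.092 to 0.77 and 0.016 to 0.80, and SDHD and NDUFA6-DT between fenbuconazole and 2,4-D, with -0.65 to 0.16 and 0.076 to 0.63. These intervals leave out the error of the subtracted DMSO means.

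Subunit genes were among the less variable genes of these arrays. The SD within groups of 3 arrays (20 residual degrees of freedom per set) had a median over the 45 subunit genes of 0.086 in the fenbuconazole set, 0.073 in the imazalil set and 0.067 in the 2,4-D set. The median over all genes was 0.15, 0.14 and 0.13, and 42, 43 and 43 of the 45 subunit genes were below it. Among the 3897 genes brighter on average than the dimmest subunit gene, the median SD was 0.091, 0.085 and 0.079, and 28, 31 and 31 subunit genes were below it. NDUFAB1, the mitochondrial acyl carrier protein, had within-group SDs of 0.038, 0.041 and 0.038, and NDUFB9 had 0.053, 0.041 and 0.035. NDUFA5 at 0.31, 0.23 and 0.20 and SDHD at 0.30, 0.21 and 0.23 had the highest SDs averaged over the sets.

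**Figure D4:**
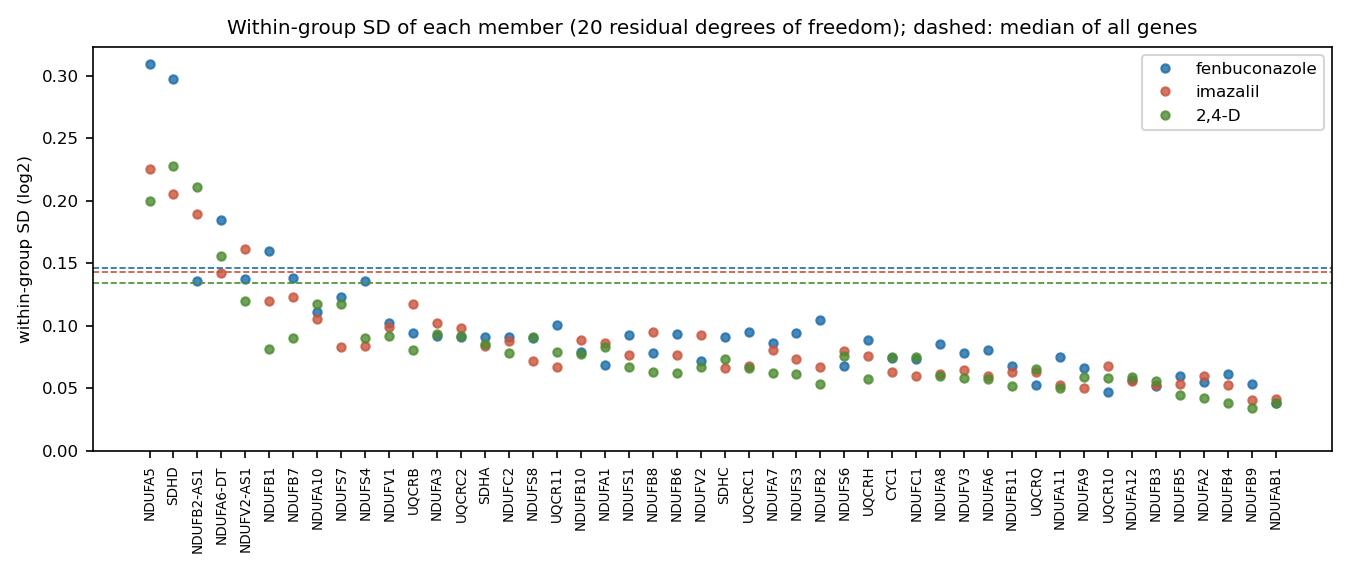
SD of log2 intensity within groups of 3 arrays (y axis) for each of the 48 members (x axis), with 1 point per compound set and dashed lines at the median of all genes. NDUFA5 and SDHD, at 0.20 to 0.31, are the highest of the subunit genes in each set, the non-coding NDUFB2-AS1 lies between them at 0.21 in the 2,4-D set, and most subunit genes lie under 0.1.

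Over the 990 pairs of subunit genes, the median correlation of values minus the group mean, across the 30 columns of a set, was 0.056, 0.090 and 0.050 for fenbuconazole, imazalil and 2,4-D. SDHD and NDUFA5, picked out after their values were seen, had r = 0.89, 0.91 and 0.88. They were not alone: 9, 9 and 3 pairs had r above 0.8, UQCRH and NDUFA6 reached 0.92 in the imazalil set, and SDHD had r = -0.84 with NDUFV1 in the fenbuconazole set and -0.85 with SDHC in the imazalil set. Over the 27 treated columns alone, none of which belongs to more than 1 set, r was 0.89, 0.91 and 0.87. The values of a point share an array and its normalization, so these are descriptions. An array that read high for SDHD tended to read high for NDUFA5 in each set.

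Both genes also moved with the spread of values on the array, measured as the interquartile range over all probe sets. That range ran from 2.87 to 3.10 log2 units in the fenbuconazole set, 2.82 to 3.10 in the imazalil set and 3.00 to 3.17 in the 2,4-D set. Per 0.1 log2 units of interquartile range within a group, SDHD rose by 0.37 ± 0.038, 0.20 ± 0.043 and 0.33 ± 0.071 (adjusted p = 3.00e-07, 0.00181 and 0.00357, limma). NDUFA5 rose by 0.34 ± 0.052, 0.24 ± 0.040 and 0.26 ± 0.068 (adjusted p = 2.82e-05, 1.34e-04 and 0.0126, limma). With the interquartile range removed from both, their correlation was 0.62, 0.81 and 0.79.

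Over all members, 17 of 48 passed the test of array spread in the fenbuconazole set, 11 in the imazalil set and 7 in the 2,4-D set, against 22.6%, 20.6% and 11.5% of all genes. Of these 12, 9 and 6 rose with the spread and 5, 2 and 1 fell. NDUFA5, SDHD and NDUFB8 rose and NDUFV1 fell in all 3 sets. NDUFV1 had -0.10 ± 0.026, -0.087 ± 0.027 and -0.15 ± 0.034 per 0.1 units, and NDUFB8 had 0.080 ± 0.022, 0.098 ± 0.024 and 0.093 ± 0.030. NDUFB7, NDUFB6, NDUFC1, UQCRC2 and UQCRH rose and NDUFS3 fell in the fenbuconazole and imazalil sets, and NDUFB1 and NDUFS4 rose in the fenbuconazole and 2,4-D sets. UQCR11 and UQCRB rose and NDUFB2, UQCRC1 and NDUFA6-DT fell in the fenbuconazole set, NDUFV2 rose in the imazalil set and NDUFA1 in the 2,4-D set, and the difference between sets was not tested.

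On the treated columns alone 15, 5 and 3 of 48 members passed, against 19.5%, 17.5% and 6.48% of all genes, and SDHD passed in all 3 sets with the same direction, as did 743 of 19774 genes (3.76%). The mean interquartile range at 10 µM was 2.97 against 3.02 in DMSO for fenbuconazole, 3.07 against 3.01 for imazalil and 3.07 against 3.08 for 2,4-D. For SDHD and NDUFA5, fits of the 10 µM differences with the interquartile range in the model are given above. The part of array spread in those differences was not tested.

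**Figure D5:**
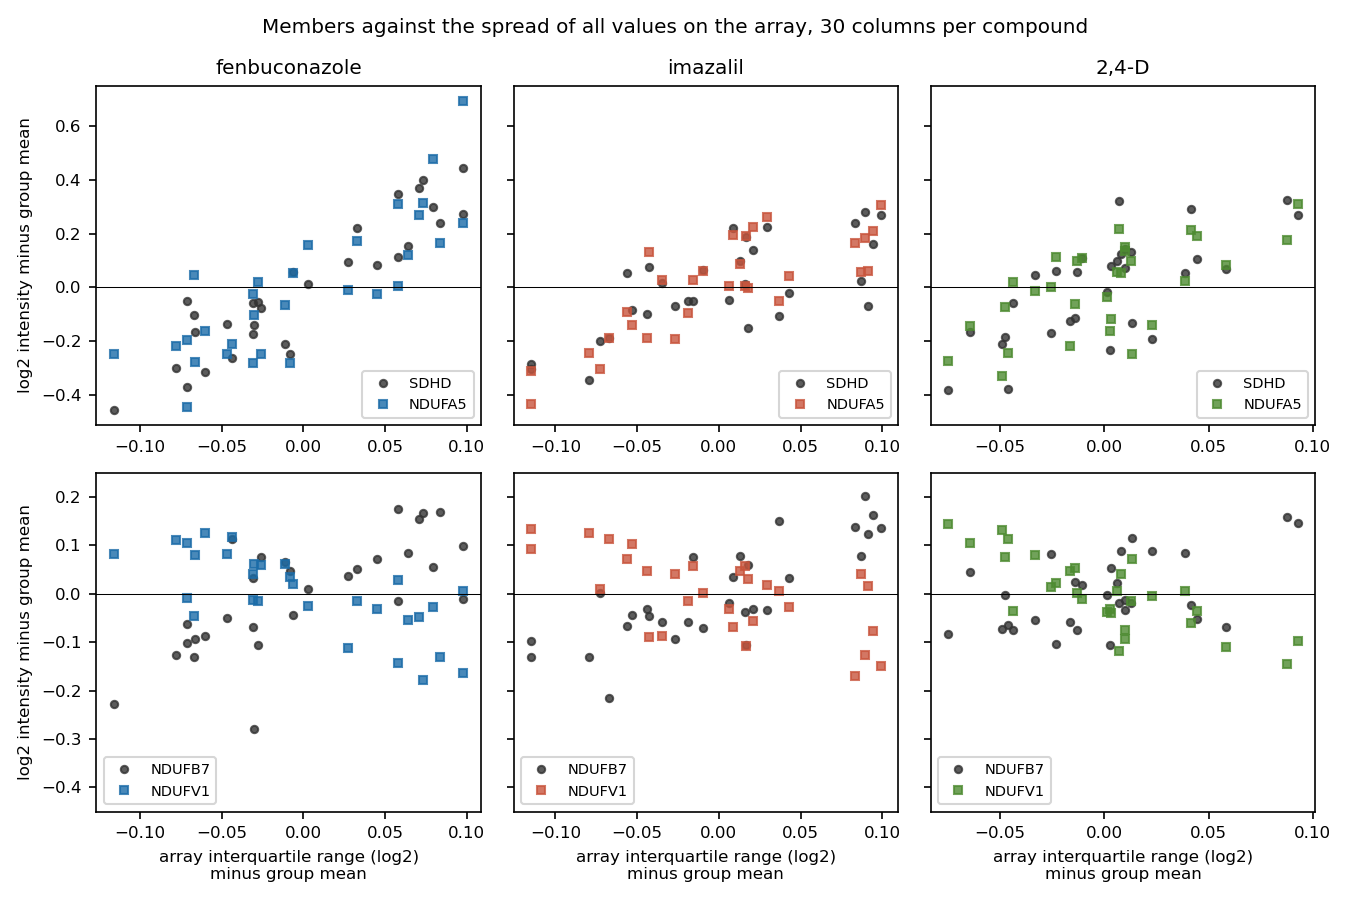
Log2 intensity minus group mean (y axis) against the interquartile range of all probe sets on the array minus its group mean (x axis, log2 units) for SDHD and NDUFA5 (upper panels) and NDUFB7 and NDUFV1 (lower panels), 1 point per column in the 30 columns of each compound set. SDHD and NDUFA5 rise along the axis in all 3 sets, and NDUFV1 falls.

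Replicate number was tested in the same way. It called 0, 0 and 1 members for fenbuconazole, imazalil and 2,4-D, against 0.086%, 0.0455% and 0.657% of all genes. The member was NDUFS7 in the 2,4-D set, where arrays numbered 3 differed from those numbered 1 by -0.14 and arrays numbered 2 by 0.036 (adjusted p = 0.0344, limma F test). NDUFA10, an accessory subunit, had adjusted p values of 0.0699 with fenbuconazole and 0.0560 with 2,4-D in the same test (limma).

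Many members have more than 1 probe set. The 48 members had 91 single-symbol probe sets, and 27 members had several. Of the 43 not used above, 28 were brighter than the array medians. In a fit over all 54715 probe sets 0 of the 43 passed the threshold at 10 µM of any compound. The smallest adjusted p of any member probe set in that fit was 0.946 (limma). The share of all probe sets that passed is not given here. In the fit by gene 0.0152%, 0.106% and 0% of all genes passed for fenbuconazole, imazalil and 2,4-D. A count of 0 therefore does not set these probe sets apart. A bright second UQCRB probe set differed by -0.013 ± 0.11, 0.10 ± 0.13 and -0.016 ± 0.10 and a second NDUFA11 probe set by -0.011 ± 0.094, 0.028 ± 0.096 and -0.067 ± 0.080 for fenbuconazole, imazalil and 2,4-D. Other bright probe sets lay further from the one used. With imazalil an SDHC probe set differed by 0.19 ± 0.13 (used: -0.035) and an NDUFS8 probe set by 0.17 ± 0.085 (used: -0.0066). With fenbuconazole an NDUFS1 probe set differed by 0.12 ± 0.082 (used: -0.0012). Some dimmer ones lay further still. An NDUFV3 probe set with a mean of 5.58 differed by -0.28 ± 0.19 with fenbuconazole (used: -0.065) and 0.25 ± 0.21 with imazalil (used: -0.033). An NDUFA11 probe set with a mean of 3.19 differed by -0.33 ± 0.12 with imazalil (used: 0.034). The dimmest UQCRB probe set, with a mean of 2.68, differed by -0.37 ± 0.12, -0.23 ± 0.12 and -0.33 ± 0.12, and none of these passed.

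The neighbouring steps of the chain also gave counts of 0. Of all genes 0.0152%, 0.106% and 0% passed at 10 µM of fenbuconazole, imazalil and 2,4-D. Counts of 0 therefore do not set the lists below apart from other genes. Of complex I assembly factors 0 of 16, of complex II and III assembly factors 0 of 10, of electron entry and cytochrome c genes 0 of 17, of complex IV subunits 0 of 15 and of complex V subunits 0 of 19 passed the threshold at 10 µM of any compound, in either direction. In that order the median log2 differences were -0.054, -0.048, 0.00504, 0.031 and -0.012 with fenbuconazole, 0.0048, 0.024, 0.047, 0.059 and 0.059 with imazalil and -0.039, -0.051, 0.0031, 0.039 and -0.021 with 2,4-D, beside the medians of the members and of all genes given above. CYCS, cytochrome c itself, differed by -0.059 ± 0.065, 0.14 ± 0.061 and 0.0035 ± 0.067 for fenbuconazole, imazalil and 2,4-D. Of the hepatocyte markers 0 of 13 passed at 10 µM of any compound, and of the blood, endothelial and mesenchymal markers 0 of 14 did.

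Of 16 regulators of respiratory genes 0 passed, beside the shares of all genes given above. The highest was ESRRA with fenbuconazole, at 0.25, and with imazalil, at 0.44. With imazalil the smallest adjusted p of the list was 0.356 (limma). With 2,4-D the highest was PPRC1 at 0.17. PPARGC1A, a coactivator that drives mitochondrial gene expression, differed by -0.072 ± 0.12, 0.34 ± 0.11 and -0.046 ± 0.10, with an adjusted p of 0.647 for imazalil (limma). NRF1 differed by -0.49 ± 0.18, 0.21 ± 0.16 and -0.070 ± 0.14, with an adjusted p of 0.958 for fenbuconazole (limma). GABPA differed by -0.15 ± 0.23, 0.19 ± 0.19 and -0.043 ± 0.13, and TFAM, which packages mitochondrial DNA and starts its transcription, by 0.015 ± 0.12, 0.057 ± 0.10 and 0.020 ± 0.13. Of 20 genes that respond to mitochondrial stress 0 passed, beside the same shares of all genes. The highest with fenbuconazole was TRIB3 at 0.35, where the smallest adjusted p of the list was 0.197 (limma). ATF4, a central factor of that response, differed by 0.070 ± 0.058, 0.083 ± 0.064 and 0.022 ± 0.057. GDF15, a secreted product of the response, differed by 0.24 ± 0.081, 0.21 ± 0.093 and -0.078 ± 0.070, with adjusted p values of 0.877, 0.796 and 1.00 (limma).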

How the data were processed

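Total RNA of HepG2 cells was hybridised to Affymetrix arrays. Per the labels, the authors ran RMA on each compound's 27 treated arrays with the 3 common DMSO arrays, and the processing notes also name Partek, with no version or setting stated. The deposited values are therefore taken as log2 intensities. The 90 columns come from 84 arrays. Array medians and interquartile ranges still differed within a set, and a change shared by most genes could be lost. The number of arrays limits the precision.

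Each gene was represented by its brightest single-symbol probe set, by the mean of the 90 columns (19774 genes, no filter). Symbols changed in 0 cases when updated through Entrez identifiers. R 4.3.3 and limma 3.58.1 (lmFit, eBayes) were run on the 30 columns of a set with a mean for every group and without a block, for each dose against DMSO, the F test over doses, 10 µM against the 3 lowest doses, and, with group in the model, replicate number and array spread. Slopes used the 27 treated columns. P values were two-sided and adjusted by Benjamini-Hochberg within a contrast over all genes, with a threshold of 0.05. Scripts were tested on simulated data.

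Members and lists were chosen with earlier results of these data known. Named were the 5 highest and 5 lowest members per compound at 10 µM, the 3 steepest slopes each way, the 3 lowest p values per pair, every member past a threshold and fixed genes by role, some of which were not analysed here. NDUFA6, SDHC, the lower-dose extremes, the second probe sets and the steadiest genes were named after their values were seen. So were TRIB3, ESRRA, NDUFA10 in the replicate test and members under an unadjusted p of 0.05. Nothing in the labels says that replicates were separate cultures, so p values measure the spread between these arrays, which may be technical. Deviations of same-numbered DMSO and 10 µM arrays correlated, for replicates 1, 2 and 3, at 0.39, 0.21 and 0.076 with fenbuconazole. The values were -0.15, 0.056 and 0.15 with imazalil and 0.41, 0.31 and 0.16 with 2,4-D. Every value was positive with fenbuconazole and 2,4-D, and whether the numbers pair arrays was not settled. The main fits took no account of such pairing. Alternatives were the replicate block, each replicate left out, a robust trended variance model, a filter on dim genes, the mean of probe sets, joint quantile normalization, the compared groups alone and the array interquartile range as covariate. The fit of array spread on treated columns was chosen after seeing the data.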

Additional observations from a re-analysis of the deposited data

How the results depend on the processing

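The count of members past the threshold was 0 of 48 in all 219 recomputed values for the dose, F, slope, lowest-dose and between-compound contrasts, including the fits with the replicate block (0 members in each). Pairing by the block changed no call in these contrasts. The adjusted p of the named members at 10 µM stayed at 0.406 or higher (limma). Of 46 named values, 24 had the same sign in every alternative. The values of NDUFV2-AS1 with fenbuconazole and 2,4-D and of NDUFA6-DT with 2,4-D could not be recomputed without dim genes, since the filter removed them.

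Settings turned signs as follows. With joint quantile normalization the median over members was -0.0081 for imazalil and -0.0011 for 2,4-D, CYC1 was 0.0017 and NDUFS1 0.013 with fenbuconazole, and UQCRC2 was -0.0073 with 2,4-D. With the array interquartile range as covariate NDUFS1 was 0.028, NDUFV1 -0.014 and UQCRC1 -0.042 with fenbuconazole. With the mean of all probe sets per gene NDUFB8 was 0.066 with fenbuconazole, NDUFS1 -0.00085, NDUFV1 0.0049 and UQCRB -0.010 with imazalil, and NDUFS1 0.039, NDUFV1 0.056 and UQCRC2 -0.093 with 2,4-D.

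When replicates were left out in turn, the median over members with 2,4-D ran from -0.024 to 0.010. With fenbuconazole CYC1 ran from -0.061 to 0.064, NDUFB1 from -0.20 to 0.012, NDUFB2-AS1 from -0.011 to 0.19, NDUFB8 from -0.12 to 0.00196, NDUFS1 from -0.10 to 0.065, NDUFS3 from -0.0068 to 0.12, NDUFV1 from -0.030 to 0.12, SDHA from -0.094 to 0.071 and UQCRC1 from -0.022 to 0.057. With imazalil CYC1 ran from -0.075 to 0.020 and SDHA from -0.081 to 0.021. With 2,4-D NDUFA5 ran from -0.094 to 0.22, NDUFB8 from -0.025 to 0.068, NDUFV1 from -0.12 to 0.023, SDHA from -0.13 to 0.032, SDHD from -0.13 to 0.22, UQCRC1 from -0.048 to 0.0043 and UQCRC2 from -0.037 to 0.073.

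The counts for array spread moved to 18 (imazalil) and 13 (2,4-D) with the robust trended variance model, where 21.9% and 13.2% of all genes passed, and to 5 and 3 on treated columns alone, where fewer columns entered and 17.5% and 6.48% of all genes passed. The counts for replicate number became 1 for fenbuconazole and 2 for 2,4-D with the robust trended variance model, where 0.202% and 1.64% of all genes passed, and 0 for 2,4-D with the mean of probe sets or joint quantile normalization. The causes of these moves were not tested.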
